A study of Mus musculus with 9 samples.

Results

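Chemokine ligands and their receptors were examined in poly-A RNA-seq of murine cardiac endothelial cells (MCEC), an established line from mouse heart. Members were all protein-coding genes of the count table with a symbol made of Ccl, Cxcl, Cx3cl, Xcl, Ccr, Cxcr, Cx3cr, Xcr or Ackr and a number, with or without letters after it. They came to 67 of the 55487 genes by Ensembl identifier, with 61 symbols, of which 45 were ligands and 22 were receptors. The 9 libraries formed 3 groups of 3. The first group was unmodified MCEC (WT), the next carried a Zbtb46 knockdown (KD), and the last carried an enforced Zbtb46 overexpression (OE). The Zbtb46 product is a zinc finger protein of the BTB class that acts in transcription. The labels do not say how either modification was made or whether a modified line is 1 clone, and no library of cells with an empty vector was analysed here. Nothing in the labels says that replicates were separate cultures, so p-values measure only the spread between these libraries, which may be technical.

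Chemokines are small secreted proteins that attract leukocytes by binding G protein-coupled receptors. They are named for the spacing of their first cysteines (CC, CXC, CX3C and XC). Atypical receptors (Ackr) bind chemokines without the usual G protein signal and take them up, which shapes the gradient. Endothelial cells are known as a source of chemokines, which they hold on their surface, while most of the signalling receptors are carried by leukocytes.

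Total counts ran from 39491828 to 55745849 per library, and 16955 genes passed the filter on low counts and were tested. Zbtb46 lay at 13.2 to 14.4 CPM (counts scaled to the normalised library total) in WT, at 10.7 to 11.7 CPM in KD and at 189 to 194 CPM in OE. Its mRNA was thus only slightly lower in KD (log2 fold change -0.28, SE 0.055, adjusted p = 0.00144 in edgeR's quasi-likelihood test) and far higher in OE (log2 fold change 3.81, SE 0.039, adjusted p = 3.22e-21). Several defining endothelial markers were near absent: Erg had 0 counts in every library, Cdh5 at most 7 and Pecam1 at most 10, whereas Eng stood at 125 CPM and Flt1 at 17.2 CPM in WT. The 16 endothelial markers summed to 152 to 165 CPM in WT, 126 to 133 CPM in KD and 115 to 127 CPM in OE, a sum led by Eng. Of the 8 endothelial markers tested, 5 were lower in KD, and 5 were lower and 2 higher in OE. The 12 fibroblast and mural markers, led by Col1a1 at 5259 CPM in WT, summed to 8133 to 9008 CPM in WT, 8085 to 8210 CPM in KD and 5099 to 5209 CPM in OE. Of the 9 fibroblast and mural markers tested, 8 were lower in OE and 2 were lower and 1 higher in KD. Over all genes tested, 10.4% were lower and 11.0% higher in KD, and 19.5% were lower and 17.0% higher in OE. Of the 5 lymphatic endothelial markers, Prox1 and Lyve1 had at most 3 counts in every library. Ccl21a was at 0, which is uncertain because this gene has near-identical copies. Flt4 and Pdpn, the rest of the list, stood at 116 and 88.2 CPM in WT and carried its sum. The list summed to 202 to 208 CPM in WT, 202 to 210 CPM in KD and 159 to 163 CPM in OE. The 6 cardiomyocyte markers, with Myh6 at 0, summed to at most 1.05 CPM in WT and KD libraries and to 1.41 to 1.62 CPM in OE.

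Most chemokine genes had few or no counts in MCEC. Of the 67 members, 17 had 0 counts in every library, 29 (these 17 included) never exceeded 3 counts, and 17 others passed the filter on low counts and were tested. The tested genes were 14 ligands and 3 receptors, namely Ccl2, Ccl7, Ccl9, Ccl20, Ccl25, Ccl27a, Ccl28, Cxcl1, Cxcl5, Cxcl10, Cxcl12, Cxcl16, Cxcl17, Cx3cl1, Ccr7, Ccr10 and Ackr3. Of these, 14 had at least 10 counts in every library; the filter asks for enough counts in only 1 group's number of libraries, so the other 3 (Cxcl17, Ccr7 and Ccl20) could pass through the groups in which they were higher. A count of 0 allows up to 3 counts, which is 0.0504 to 0.0791 CPM depending on the library, for counting error only. Small counts were more often even than odd, as they would be if both mates of a pair were counted, and the limit would then be higher. All entries of Ccl21 and some of Ccl19 and Ccl27a had 0 counts, and these genes have near-identical copies. How reads that match several copies were counted is not given in the sources used here, so these zeros need not mean absent RNA.

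**Figure D1:**
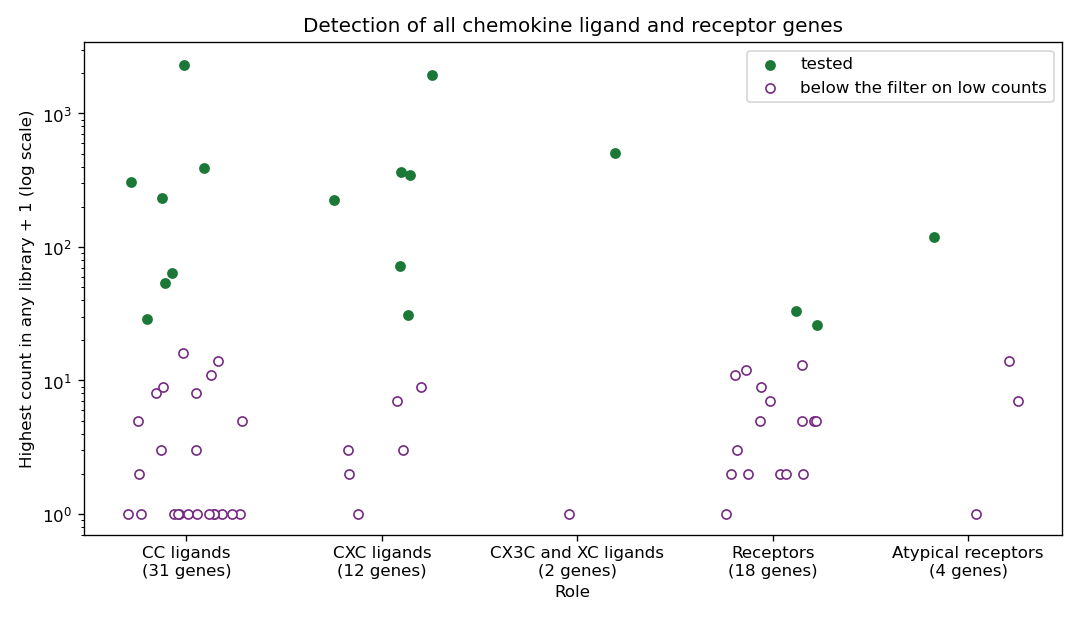
Highest count of each of the 67 chemokine genes in any of the 9 libraries, plus 1, on a log scale, by role; filled points are the 17 genes tested and open points those below the filter on low counts. Points at the value 1 are the 17 genes with 0 counts in every library, and among the 18 signalling receptors 2 were tested.

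Levels were compared between genes per exon length (CPM per kilobase of merged exons). Ccl2, which attracts monocytes, stood first in WT at 35.7 ± 3.50 CPM per kb (SD, n = 3). Ccl7, a close relative encoded beside it that also attracts monocytes, followed at 5.29 ± 1.04 CPM per kb. Cxcl12, the ligand of Cxcr4 and Ackr3, came after them at 3.91 ± 0.100 CPM per kb. Cxcl10 followed at 2.51 ± 0.190 CPM per kb. Each of these 4 was separate from the next in the order, without overlap between WT libraries. Cxcl16, Cx3cl1, Cxcl1 and Ccl27a came next, from 2.02 down to 1.70 CPM per kb, and neighbours in this stretch overlapped. Ccl28 was lowest at 0.155 ± 0.0297 CPM per kb. In KD and in OE, Ccl2, Ccl7 and Cxcl12 again led in this order, but in KD Cxcl12 at 1.42 CPM per kb overlapped the next gene, Cx3cl1, at 1.21 CPM per kb. The order depends on the merged lengths, which a single transcript need not span, such as 8176 bases for Cxcl12 against 801 for Ccl7. In WT, Cxcl12 had a mean of 32.0 CPM and Ccl7 of 4.24 CPM. On the CPM scale, Ccl2 and Cxcl12 together made up 61.8% of the summed level of all 67 genes in WT, 56.6% of it in KD and 57.8% in OE.

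**Figure D2:**
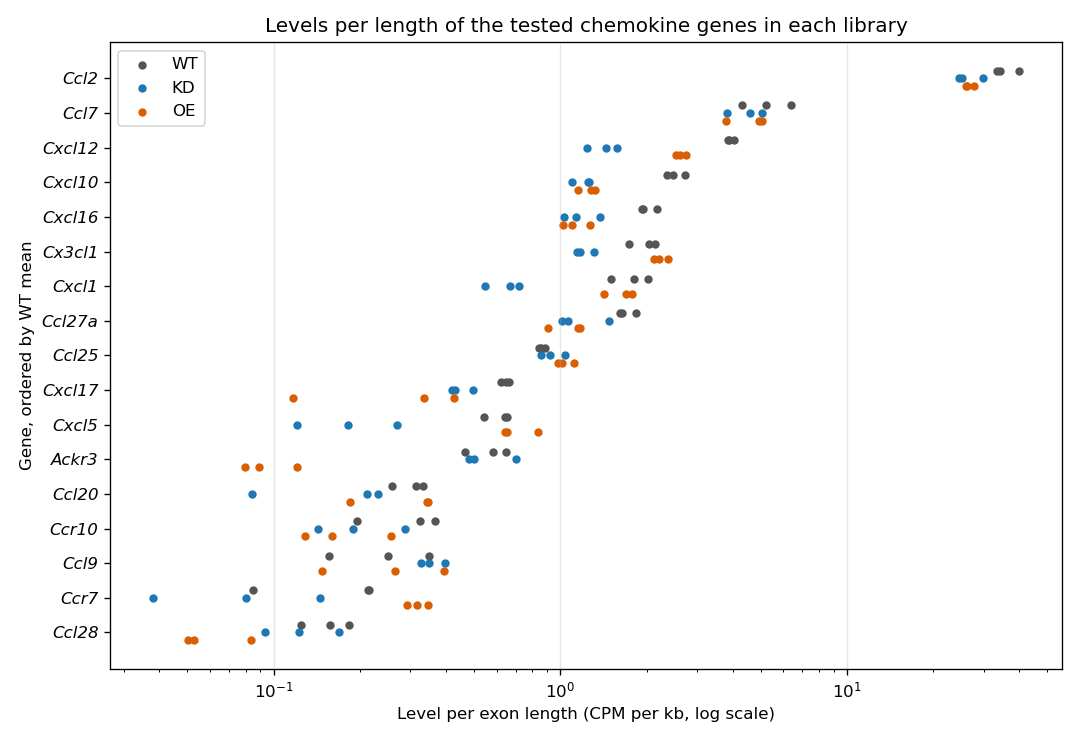
Level per exon length of the 17 tested genes, in CPM per kb on a log axis, with 1 point per library and genes ordered by the WT mean. Ccl2 lies apart at the top, with a WT mean of 35.7 CPM per kb against 5.29 for the next gene, Ccl7.

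Summed over all members, the level was lower in both modified lines than in WT. The WT libraries held 113, 119 and 121 CPM, the KD libraries 74.7, 70.3 and 76.9 CPM, and the OE libraries 88.6, 92.7 and 87.6 CPM. The 3 groups did not overlap. CXC ligands summed to 48.8 ± 1.46 CPM in WT libraries, 19.9 ± 1.51 CPM in KD libraries and 32.5 ± 0.999 CPM in OE libraries (SD, n = 3). CC ligands summed to 57.9 ± 2.98, 46.2 ± 2.72 and 46.4 ± 1.46 CPM in the same order. These sums follow the most abundant genes. In bulk RNA, fewer cells that express a gene and less of its RNA per cell cannot be told apart. The summed endothelial markers, whose ranges are given above, also lay lower in both modified lines than in WT, although 2 of the 8 tested were higher in OE, and the fibroblast, mural and lymphatic sums lay lower in OE. Their part in the chemokine results was not tested.

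Against WT, 8 of the 17 tested genes were lower in KD and 0 were higher at an adjusted p under 0.05 (edgeR, Benjamini-Hochberg over all genes tested). Over all genes tested, 10.4% were lower and 11.0% higher in this comparison, 21.3% in all. The median log2 fold change was -0.53 over the 17 genes and -0.0022 over all genes tested. The 8 genes were all ligands: Cxcl1, Cxcl5, Cxcl10, Cxcl12, Cxcl16, Cx3cl1, Ccl2 and Ccl27a. In OE, 7 of the 17 were lower than in WT and 0 were higher, where 19.5% of all genes tested were lower, 17.0% higher and 36.4% differed in all. The median log2 fold change was -0.42 over the 17 genes and 0.0020 over all genes tested. The 7 genes were Cxcl10, Cxcl12, Cxcl16, Ccl2, Ccl27a, Ccl28 and Ackr3. Between the modified lines, 5 of 17 were higher in OE than in KD (Cxcl1, Cxcl5, Cxcl12, Cx3cl1 and Ccr7) and 2 were lower (Ccl28 and Ackr3), against 19.4% higher, 22.1% lower and 41.5% in all. Any difference among the 3 groups was called for 11 of 17 genes, against 47.7% of all genes tested. No overlap between the libraries was seen for 10 of the 17 genes in KD against WT (34.7% of all genes tested), for 10 in OE against WT (45.1%) and for 7 in OE against KD (55.4%). The comparisons share libraries, so their counts are not independent of each other.

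**Figure D3:**
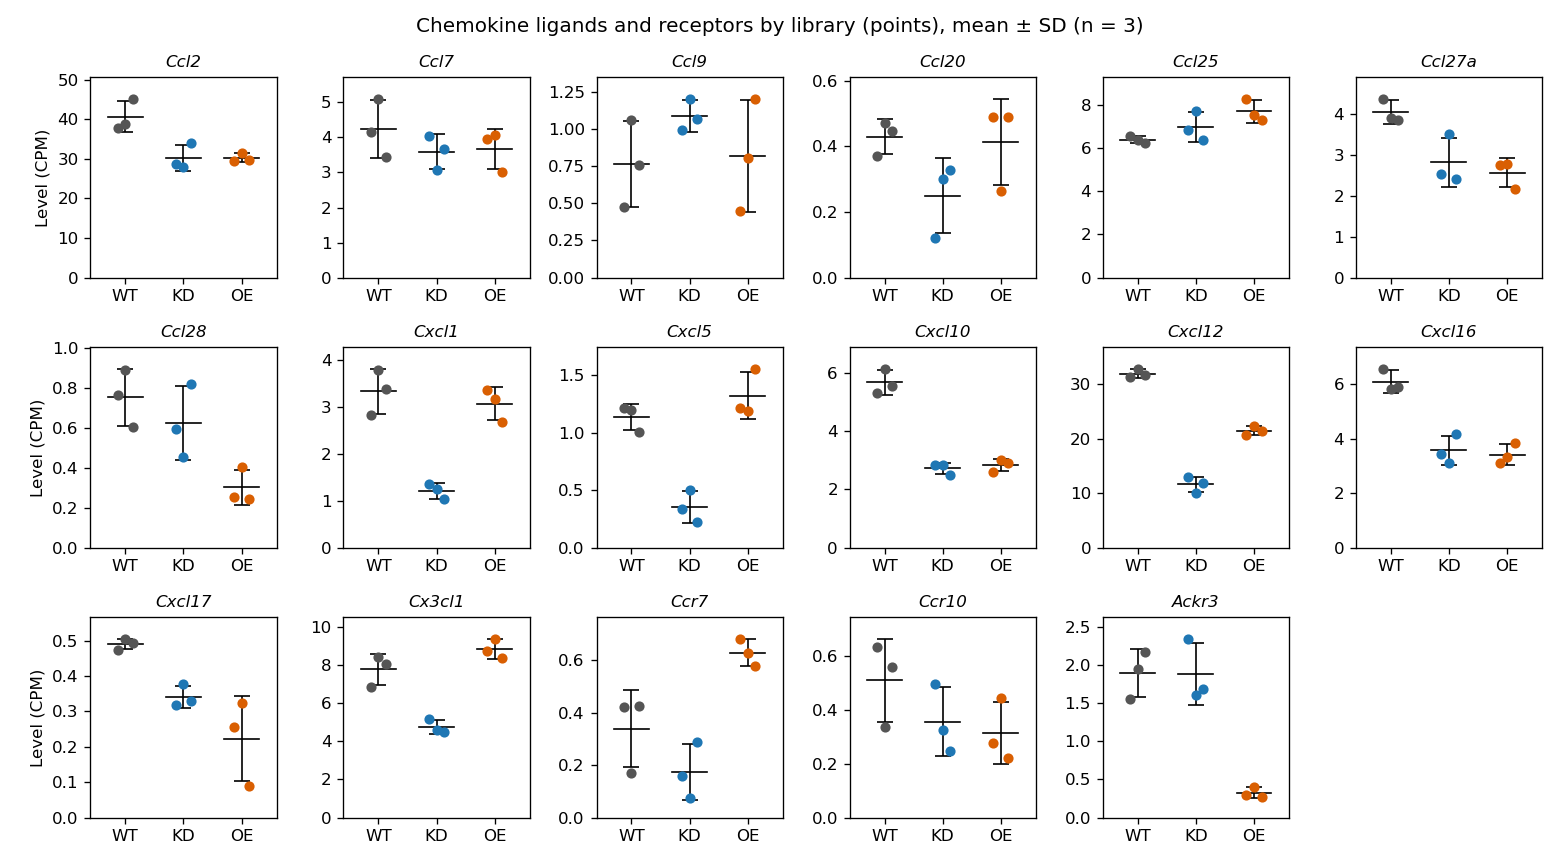
Levels of the 17 tested genes in CPM, with 1 point per library, the mean as a horizontal line and the SD as an error bar (n = 3 per group), each panel on its own axis from 0. In Cxcl1, Cxcl5 and Cx3cl1 the KD points lie below all WT and OE points, Ackr3 is low in OE at 0.323 CPM, and Cxcl10 and Cxcl16 sit below WT in both modified lines.

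The neutrophil attractants Cxcl1 and Cxcl5, which act through the receptor Cxcr2, were lower in KD than in both other groups. Cxcl1 had 2.82, 3.78 and 3.38 CPM in the WT libraries, 1.35, 1.26 and 1.02 CPM in KD and 3.35, 3.17 and 2.67 CPM in OE. Every KD library lay below every WT and OE library, and WT and OE overlapped. The fall from WT to KD was 2.76-fold (log2 fold change -1.46, SE 0.17, adjusted p = 1.13e-05), whereas OE differed from WT by -0.13 (SE 0.16, adjusted p = 0.630). Cxcl5 had 1.21, 1.19 and 1.01 CPM in WT, 0.338, 0.502 and 0.225 CPM in KD and 1.21, 1.19 and 1.56 CPM in OE. Its KD libraries were again separate from the rest, at 11 to 20 counts each. The fall was 3.24-fold (log2 fold change -1.70, SE 0.31, adjusted p = 5.79e-04). Between OE and KD, Cxcl1 was 2.53-fold higher in OE (adjusted p = 7.77e-06) and Cxcl5 3.75-fold higher (adjusted p = 4.85e-05). Both genes lie in a cluster of 5 members on chromosome 5 (chr5:90759360-90905938, GRCm38), in which the other genes were barely detected: Cxcl3 had at most 8 counts in a library, Cxcl2 at most 1 and Cxcl15 had 0. Their receptors Cxcr1 and Cxcr2 had at most 1 and 8 counts in a library.

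Cx3cl1 encodes a membrane-bound chemokine that holds cells bearing Cx3cr1 and can be shed. It had 6.85, 8.42 and 8.03 CPM in WT, 5.15, 4.60 and 4.49 CPM in KD and 8.72, 9.37 and 8.36 CPM in OE. The KD libraries lay below all others, and the lowest OE library lay just under the highest WT library. The fall in KD was 1.64-fold (log2 fold change -0.71, SE 0.11, adjusted p = 1.39e-04). OE did not pass against WT (log2 fold change 0.18, SE 0.10, adjusted p = 0.241) but was 1.86-fold above KD (adjusted p = 2.22e-06). Its neighbours on chromosome 8 within the same cluster, Ccl17 and Ccl22, had at most 7 and 0 counts in a library.

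Cxcl12, which retains and guides cells that carry Cxcr4, was lower in both modified lines, and lowest in KD. It had 31.3, 32.9 and 31.7 CPM in WT, 12.9, 10.1 and 11.8 CPM in KD and 20.8, 22.4 and 21.4 CPM in OE. The 3 groups were separate at every library. The fall was 2.75-fold in KD (log2 fold change -1.46, SE 0.10, adjusted p = 3.53e-11) and 1.49-fold in OE (log2 fold change -0.57, SE 0.039, adjusted p = 4.03e-06). The 2 modified lines themselves differed by 1.85-fold (log2 fold change 0.89 for OE against KD, SE 0.11, adjusted p = 1.13e-08). Cxcl12 was the only one of the 17 genes called in all 3 comparisons. Its signalling receptor Cxcr4 had at most 2 counts in a library.

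Cxcl10 and Cxcl16, ligands of Cxcr3 and Cxcr6 on T cells, were lower by similar amounts in both modified lines. Cxcl10, known as an interferon-inducible gene, had 5.30, 6.13 and 5.55 CPM in WT, 2.82, 2.84 and 2.48 CPM in KD and 2.6, 2.99 and 2.89 CPM in OE. Both modified lines lay below all WT libraries and overlapped each other. The fall was 2.09-fold in KD (log2 fold change -1.07, SE 0.088, adjusted p = 1.64e-05) and 2.01-fold in OE (-1.0, SE 0.086, adjusted p = 9.71e-06), and OE against KD gave 0.061 (SE 0.086, adjusted p = 0.789). Its neighbour Cxcl9, induced by the same cytokine, had at most 2 counts in a library. Cxcl16, made as a membrane-bound protein like Cx3cl1, had 6.56, 5.83 and 5.88 CPM in WT, 3.44, 3.11 and 4.16 CPM in KD and 3.09, 3.31 and 3.82 CPM in OE. It fell 1.70-fold in KD (log2 fold change -0.76, SE 0.13, adjusted p = 5.97e-04) and 1.79-fold in OE (-0.84, SE 0.10, adjusted p = 1.08e-04). Exons of Cxcl10 overlap Art3 and those of Cxcl16 overlap Zmynd15 on the opposite strand, and whether counting used strand is not given in the sources used here. Art3 had at most 5 counts in a library. Zmynd15 had 27 to 75 counts per library against 124 to 347 for Cxcl16. Its log2 fold changes against WT had the same sign as those of Cxcl16 but did not pass. They were -0.50 in KD (SE 0.22, adjusted p = 0.259) and -0.46 in OE (SE 0.34, adjusted p = 0.239). Cxcl17, a mucosal chemokine, had 0.475, 0.504 and 0.492 CPM in WT, 0.318, 0.377 and 0.328 CPM in KD and 0.256, 0.323 and 0.0889 CPM in OE. The WT libraries lay above all others, but at 4 to 30 counts per library neither comparison with WT passed (adjusted p = 0.473 in KD and 0.0714 in OE).

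The upstream sequences of 4 ligands, which cover 3 of the patterns above, are shown because motifs of known inducers of chemokine genes could be looked for in them. They are the 250 bases before the annotated start in RefSeq, build GRCm38.p6, written 5′ to 3′ on the gene's strand, and RefSeq entries were used for 10 of the 17 tested genes. Capitals mark matches on either strand to the NF-kappa B consensus, the AP-1 motif TGANTCA, the interferon response motif (GAAA, any 2 bases, GAAA), the GC box GGGCGG and TATAAA. Cxcl10 (chr5:92348890-92349139, minus strand) was lower in both lines, Cxcl1 (chr5:90890995-90891244, plus strand) and Cx3cl1 (chr8:94771930-94772179, plus strand) were lower in KD against WT, and Cxcl12 (chr6:117168285-117168534, plus strand) was lowest in KD.
Cxcl10: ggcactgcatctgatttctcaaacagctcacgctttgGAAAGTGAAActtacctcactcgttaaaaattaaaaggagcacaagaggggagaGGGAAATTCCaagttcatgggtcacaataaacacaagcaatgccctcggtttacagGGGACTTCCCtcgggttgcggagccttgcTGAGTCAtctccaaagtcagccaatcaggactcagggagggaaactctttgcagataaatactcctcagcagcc
Cxcl1: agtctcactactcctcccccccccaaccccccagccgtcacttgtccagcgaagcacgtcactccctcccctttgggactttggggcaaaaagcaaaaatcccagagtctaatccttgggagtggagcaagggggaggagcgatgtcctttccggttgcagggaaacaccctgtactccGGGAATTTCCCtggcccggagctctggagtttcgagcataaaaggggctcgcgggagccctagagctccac
Cx3cl1: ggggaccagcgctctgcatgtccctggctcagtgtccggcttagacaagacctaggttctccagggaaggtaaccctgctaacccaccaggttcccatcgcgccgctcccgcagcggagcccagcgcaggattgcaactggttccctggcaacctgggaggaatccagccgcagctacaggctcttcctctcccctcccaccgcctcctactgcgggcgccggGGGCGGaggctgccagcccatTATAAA
Cxcl12: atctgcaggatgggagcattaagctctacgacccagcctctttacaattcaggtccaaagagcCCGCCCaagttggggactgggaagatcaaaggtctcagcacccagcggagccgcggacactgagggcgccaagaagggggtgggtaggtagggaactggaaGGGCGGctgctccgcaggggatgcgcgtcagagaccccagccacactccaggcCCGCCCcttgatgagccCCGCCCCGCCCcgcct

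The Cxcl10 sequence holds the interferon response motif at 213 to 204 bases before the start, NF-kappa B matches at 159 to 150 and 103 to 94 bases, and an AP-1 match at 74 to 68 bases. In the Cxcl1 sequence an NF-kappa B match on the plus strand at 71 to 62 bases before the start overlaps another on the minus strand at 70 to 61 bases. Cx3cl1 has a GC box at 27 to 22 bases and a TATAAA that ends at the last base before the start. In GENCODE M21 this gene starts at chr8:94772009, inside the window, so both matches lie after that start. Cxcl12 has 5 GC boxes, of which the last pair overlap by 1 base. Of the 32851 RefSeq sequences of the same length, 3.9% hold an NF-kappa B match, 6.75% an AP-1 match, 2.98% the interferon response motif, 32.7% a GC box and 12.4% TATAAA. The AP-1 motif is its own reverse complement, so each AP-1 match is read on both strands. Among the other tested genes with a RefSeq entry, NF-kappa B matches were found for Ccl20 and Ccl9, which did not pass in any comparison. AP-1 matches were found for Ccl9 and for Ccl27a, which was lower in both lines. Whether motifs go with the changes was not tested. A match describes letters in these windows and does not show binding.

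Among CC ligands, Ccl2 and Ccl27a were lower in both modified lines and Ccl28 in OE. Ccl2 had 37.9, 38.9 and 45.2 CPM in WT, 28.8, 28.0 and 34.1 CPM in KD and 29.5, 31.6 and 29.9 CPM in OE. The KD and OE libraries all lay below the WT libraries. The fall was 1.34-fold in KD (log2 fold change -0.42, SE 0.12, adjusted p = 4.98e-04) and 1.34-fold in OE (-0.42, SE 0.085, adjusted p = 2.20e-04). Ccl7, its neighbour in the same cluster, had 4.17, 5.11 and 3.45 CPM in WT, 4.05, 3.06 and 3.67 CPM in KD and 3.96, 4.06 and 3.02 CPM in OE. All 3 groups of Ccl7 overlapped, with log2 fold changes of -0.24 (SE 0.20) in KD and -0.21 (SE 0.21) in OE. Of the other genes of this cluster of 6 on chromosome 11 (chr11:82035571-82305690, GRCm38), Ccl12 had 0 counts, Ccl1 at most 4 and Ccl8 at most 10 in a library. Ccl11, an eosinophil attractant, was counted 4, 7 and 7 times in WT, 2, 0 and 2 times in KD, and 1, 1 and 0 times in OE libraries, too few to be tested.

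Ccl27a had 4.38, 3.92 and 3.85 CPM in WT, 2.52, 3.52 and 2.42 CPM in KD and 2.75, 2.79 and 2.16 CPM in OE. All libraries of the modified lines lay below those of WT, the closest being a KD library at 3.52 CPM. The log2 fold change was -0.53 (SE 0.18, adjusted p = 0.0344) in KD and -0.65 (SE 0.13, adjusted p = 0.00534) in OE. The KD call was lost without KD replicate 1 (adjusted p = 0.145), KD replicate 3 (0.165) or WT replicate 1 (0.111). Ccl27a is uncertain for another reason: its exons overlap Il11ra1 on the opposite strand, which stood at 19.5 ± 0.129 CPM (SD, n = 3) in WT, and near-identical copies of Ccl27a, Ccl19 and Ccl21 lie on chromosome 4 and on sequences not placed on a chromosome, where reads could be divided. Il11ra1 did not pass against WT in KD (log2 fold change -0.072, adjusted p = 0.541) or in OE (-0.13, adjusted p = 0.169). The other Ensembl entries named Ccl27a or Ccl27b had at most 8 counts in a library.

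Ccl28, a mucosal chemokine that binds Ccr10, had 0.765, 0.891 and 0.604 CPM in WT, 0.596, 0.452 and 0.819 CPM in KD and 0.256, 0.404 and 0.244 CPM in OE. The OE libraries lay below all others, while KD and WT overlapped. The fall in OE was 2.49-fold against WT (log2 fold change -1.31, SE 0.26, adjusted p = 0.0102) and 2.06-fold against KD (-1.04, SE 0.31, adjusted p = 0.0371). The call against KD was lost without KD replicate 1 (adjusted p = 0.0688), KD replicate 3 (0.184), OE replicate 1 (0.115) or OE replicate 3 (0.114). Ccl28 lies in a 20 Mb stretch of chromosome 13 in which the median over 97 tested genes was -0.26 (log2 fold change, OE against WT), and its own change was -1.06 relative to that median. Against KD the median of this stretch was -0.39, and the change of Ccl28 relative to it was -0.65 in place of -1.04. For the other 16 genes the median of their 20 Mb stretch was between -0.039 and 0.057 in OE against WT. In OE against KD it was between -0.10 and 0.087.

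The remaining CC ligands did not pass in any comparison. Ccl25, a thymic and gut chemokine, had 6.59, 6.39 and 6.26 CPM in WT, 6.85, 7.76 and 6.37 CPM in KD and 8.31, 7.55 and 7.31 CPM in OE. Its OE libraries lay above the WT libraries (log2 fold change 0.27, SE 0.059, adjusted p = 0.0683). Its exons overlap Elavl1, an RNA-binding protein gene on the opposite strand at 97.0 ± 7.85 CPM in WT, which was higher in OE by 0.26 on the log2 scale (SE 0.070, adjusted p = 5.32e-04). Elavl1 was also higher in KD (log2 fold change 0.16, SE 0.075, adjusted p = 0.0349). Reads of that overlap cannot be told apart if counting did not use strand, which is not given in the sources used here. Ccl9 ranged from 0.448 to 1.21 CPM over the 9 libraries with all groups overlapping. Ccl20, the ligand of Ccr6, ranged from 0.119 to 0.490 CPM; its KD libraries at 0.119, 0.301 and 0.328 CPM lay below the WT libraries at 0.369, 0.471 and 0.447 CPM, on 6 to 28 counts (log2 fold change -0.80, SE 0.39, adjusted p = 0.275).

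Ccl5, which attracts T cells and monocytes, was below the filter. It had 8, 6 and 8 counts in WT, 0 in each KD library, and 12, 8 and 15 in OE. The KD libraries lay below all WT and OE libraries, but at these counts no fold change or test is given. Ccl6, in the same cluster on chromosome 11, had 2 to 13 counts per library. The other ligands with any count were Cxcl14, Ccl17, Ccl24 and Ccl4, at no more than 7 counts in a library, and Cxcl13 and 1 of the Ccl19 entries at no more than 2. The ligands with 0 counts throughout included Ccl3, Ccl22, Ccl26, Xcl1 and all entries of Ccl21.

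**Figure D4:**
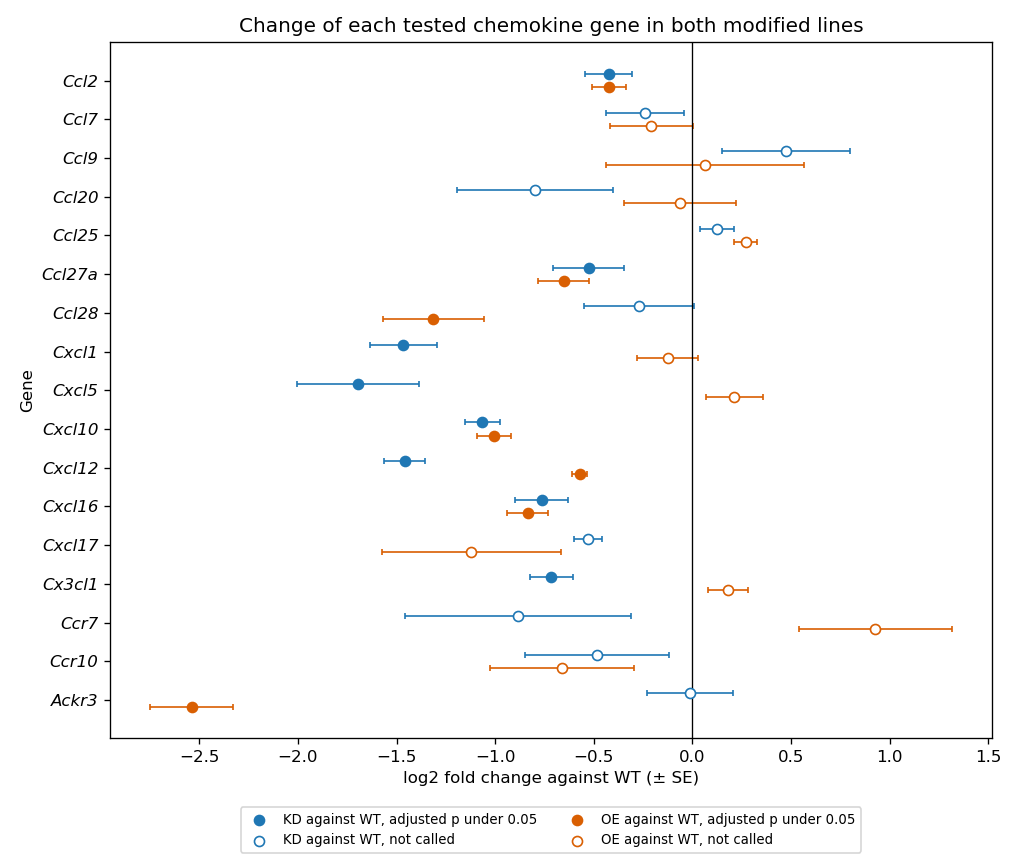
log2 fold change against WT of the 17 tested genes in KD and OE, with SE as error bars (n = 3 libraries per group). The SE come from the group SDs of log2 CPM and not from the fitted model. Filled points passed an adjusted p under 0.05. Every filled point lies below 0, from -0.42 for Ccl2 to -2.54 for Ackr3 in OE.

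Ackr3, an atypical receptor that takes up Cxcl12, showed the largest change of the 17 genes in any of the 3 comparisons. It had 1.56, 1.95 and 2.17 CPM in WT, 2.34, 1.61 and 1.68 CPM in KD and 0.298, 0.404 and 0.267 CPM in OE. WT and KD overlapped, and every OE library lay below them, at 12 to 20 counts against 59 to 118. It fell 5.81-fold in OE against WT (log2 fold change -2.54, SE 0.21, adjusted p = 3.69e-07) and 5.76-fold against KD (-2.53, SE 0.23, adjusted p = 2.58e-07). In KD the difference from WT was -0.011 (SE 0.22, adjusted p = 0.983). Ackr3 and its ligand Cxcl12 thus did not share a pattern: Cxcl12 was lowest in KD and Ackr3 in OE. The other atypical receptors were below the filter, with 2 to 13 counts per library for Ackr4, at most 6 for Ackr2, and 0 for Ackr1.

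Of the signalling receptors, only Ccr7 and Ccr10 were tested, both at low counts. Ccr7, which guides cells to lymph nodes, had 0.422, 0.168 and 0.425 CPM in WT, 0.159, 0.0754 and 0.287 CPM in KD and 0.682, 0.626 and 0.578 CPM in OE. The OE libraries lay above all others, and WT and KD overlapped. OE was 3.51-fold above KD (log2 fold change 1.81, SE 0.43, adjusted p = 0.00631) on 26 to 32 counts in OE and 3 to 14 in KD. Against WT neither line passed (log2 fold change 0.93, SE 0.39, adjusted p = 0.137 in OE, and -0.88, SE 0.57, adjusted p = 0.277 in KD). Ccr10 ranged from 0.222 to 0.633 CPM with overlapping groups. The other signalling receptors had at most 12 counts in a library, the highest being Cxcr6 at 12, Cx3cr1 at 11 and Cxcr5 at 10, and Ccr2, the receptor of Ccl2, had 0 counts. Leukocyte markers were similarly sparse: the 14 markers summed to 0.635 to 1.33 CPM over the 9 libraries, Ptprc had at most 2 counts in a library, and 1 of the 14 passed the filter on low counts.

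Genes that act around chemokines were read from 4 lists chosen with earlier results of these data known. Over all genes tested, 11.0% were higher and 10.4% lower in KD, and 17.0% were higher and 19.5% lower in OE. Among other genes of the chemokine system (17 tested), 2 were higher and 3 lower in KD, and 1 was higher and 9 lower in OE. The 5 of 17 called in KD compare with 21.3% of all genes tested, and the 10 of 17 in OE with 36.4%. Adam10, a protease known to shed Cx3cl1 and Cxcl16 from the membrane, was lower in both lines, by -0.20 in KD (SE 0.057, adjusted p = 0.00415) and -1.20 in OE (SE 0.068, adjusted p = 6.17e-14). Its mean fell from 426 CPM in WT to 185 CPM in OE. Cmtm7 was higher in KD (log2 fold change 0.41, adjusted p = 3.78e-06) and lower in OE (-0.66, adjusted p = 1.60e-09). The cytokine Mif was higher in OE (0.29, adjusted p = 0.0301). A list of transcription factors and other known regulators of chemokine expression had 32 tested genes. Of these, 2 were higher and 10 lower in KD, and 11 were higher and 8 lower in OE. The median log2 fold change was -0.15 in KD and -0.37 in OE over the chemokine system list, and -0.084 and -0.015 over the list of regulators.

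Within that list, the AP-1 gene Jun was lower in KD (log2 fold change -0.52, SE 0.095, adjusted p = 1.06e-05) and did not pass in OE (-0.035, adjusted p = 0.737). Fosl1, another AP-1 gene, was lower in KD (-0.55, adjusted p = 0.0303) and higher in OE (1.51, adjusted p = 1.84e-07), whereas Fosl2 was higher in KD (0.25, adjusted p = 1.53e-04) and lower in OE (-0.19, adjusted p = 0.00104). Cebpd was lower in KD (-0.33, adjusted p = 0.00252) and in OE (-0.58, adjusted p = 3.02e-06). For the remaining lists, the shares called over all genes tested were again 21.3% in KD and 36.4% in OE. A further list held cytokines, receptors and related genes, not all of them inducers of chemokines. Of its 19 tested genes, 4 were higher and 2 lower in KD. In OE, 4 were higher and 9 lower. The medians of this list were -0.032 in KD and -0.23 in OE. There Csf1, the macrophage growth factor, was higher in KD (0.28, adjusted p = 1.46e-05) and lower in OE (-1.17, adjusted p = 1.94e-15). Il1rn, an antagonist of the interleukin-1 receptor, was lower in KD (-0.88, adjusted p = 0.00134), and Tnfrsf12a was higher in OE (0.28, adjusted p = 5.57e-05). Of 27 tested genes that signal after chemokine receptors, 6 were higher and 6 lower in KD, and 5 were higher and 12 lower in OE, with medians of 0.017 and -0.11. They included the arrestin gene Arrb1, lower in KD (-0.65, adjusted p = 2.41e-07), the kinase gene Ptk2b, lower in OE (-1.44, adjusted p = 6.09e-10), and the G protein subunit genes Gng12, higher in KD (0.29, adjusted p = 9.16e-05), and Gnb1, higher in OE (0.40, adjusted p = 2.82e-08).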

How the data were processed

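RNA of 9 MCEC samples was column-purified, poly-A selected, primed with random hexamers and sequenced as paired ends, per the labels' protocols. The deposited table holds whole-number counts per Ensembl gene, not normalised, judged from the values; the genome build is GRCm38 (mm10) per the submitters' processing notes, and the aligner, counter, annotation release and use of strand are not given in the sources used here. Among values of 1 to 49, 60.6% to 65.6% per library were even, against 49.6% to 51.2% above 1000, a pattern that counting both mates of a pair would give, so low counts hold fewer fragments than reads. Repeated rows (168 genes on 455 of 55774 rows, with identical values) were counted once. Features of ribosomal RNA took 7.44% to 18.2% of a library. Every column matched 1 sample and 0 rows named no gene.

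Genes were kept with filterByExpr, scaled with TMM and fitted in 1 quasi-likelihood model over the 9 libraries with group as the only term (edgeR 4.0.16, R 4.3.3). Benjamini-Hochberg adjustment ran over all 16955 genes, and the threshold was 0.05. Standard errors were computed from the group SDs of log2 CPM, with a prior count of 2. Exact permutation of 3 against 3 libraries cannot give a two-sided p under 0.1, so it was not used. Exon lengths and positions came from GENCODE M21 (GRCm38). The procedure was tested on simulated counts. All 17 tested members are named; from each list the gene with the smallest p in each direction and comparison with WT is named; marker lists were endothelial, leukocyte, fibroblast and mural, lymphatic endothelial and cardiomyocyte. Members, lists and tests were chosen with earlier results of these data known. Genes named in clusters or as overlapping partners follow from position. Alternatives were other scalings, filters and tools (limma 3.58.1, DESeq2 1.42.0), a replicate block, a minimum fold change of 1.5, 20 Mb medians and leaving out each library.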

Additional observations from a re-analysis of the deposited data

How the results depend on the processing

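Against a minimum fold change of 1.5, the members called fell from 8 to 4 in KD against WT and from 7 to 2 in OE against WT. Under the other settings every count stayed within 1.5 times of that reported. Leaving out 1 library at a time gave 8 to 9 genes for KD against WT and 7 to 7 for OE against WT. It gave 6 to 8 for OE against KD and 9 to 12 for any difference. These fits tested 18 members in place of 17, except those without OE replicate 1 or OE replicate 3. Equal counts therefore need not hold the same genes. Without KD replicate 1, 8 genes were called in KD against WT although the call of Ccl27a was lost. The replicate block gave 8, 7, 7 and 11 genes, the same as without it; same-numbered libraries did not deviate together (Pearson r over genes from -0.042 to 0.049), so the numbers were not treated as pairs. Upper-quartile factors moved Ccl25 past the threshold in OE against WT (adjusted p = 0.0398), and limma-voom did so for Cxcl17 (0.0386). Without a filter, the p-values of abundant genes became far smaller, by many orders of magnitude for Cxcl12 in KD against WT, and the adjusted p of Ccl28 in OE against KD rose to 0.0633, so that fit supports no call of a single gene. Of the 22 called changes of single genes, 0 turned direction in any setting.

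Sign changes occurred only among changes that were not called. Ccl2 in OE against KD was -0.024 with library totals, -0.0075 without ribosomal RNA features, -0.012 without a filter and -0.0084 with only the groups compared, and ran from -0.055 to 0.094 when 1 library was left out. Ccl9 in OE against WT was -0.018 with library totals and -0.022 with limma-voom, and ran from -0.31 to 0.38 when 1 library was left out. In such fits the log2 fold change ran from -0.20 to 0.18 for Ccl20 in OE against WT and from -0.21 to 0.095 for Ackr3 in KD against WT. In OE against KD it ran from -0.23 to 0.052 for Ccl27a, from -0.070 to 0.15 for Ccl7, from -0.00087 to 0.12 for Cxcl10, from -0.16 to 0.054 for Cxcl16 and from -0.51 to 0.14 for Ccr10. Counts were lowest for Ccr7, Ccr10, Ccl20 and Cxcl17, at no more than 32 per library, and the SE of their log2 fold changes ran from 0.071 (Cxcl17, KD against WT) to 0.57 (Ccr7, KD against WT). These SE reflect only the spread of 3 libraries per group and can understate the error at such counts. For Cxcl17 in KD against WT, edgeR gave an adjusted p of 0.473 at a log2 fold change of -0.53.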
